A study of Mus musculus with 22 samples.

Results

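The genes examined here are the 5 canonical Notch ligands of the mouse (Dll1, Dll3, Dll4, Jag1 and Jag2) and 4 enzymes that put sugars on Notch receptors (Lfng, Mfng, Rfng and Pofut1). They were taken by name, and all 9 of 9 were measured among 22180 genes. Expression was profiled in a fraction enriched for haematopoietic stem cells, sorted from fetal liver of wild-type C57Bl/6J embryos at E14.5. Liver cells were grown on a layer of OP9-DL1, which is mouse stroma of bone marrow origin engineered to express the Notch ligand Dll1. The medium held either an inhibitor of gamma-secretase (GSI) at 1 µM or DMSO alone. After culture the SLAM LSK fraction was sorted, that is, cells without lineage markers that carry Sca-1 and Kit and are gated on SLAM family markers. After 10 h of culture there were 4 GSI and 4 DMSO samples, and after 4 h there were 7 GSI and 7 DMSO samples, with 1 array for each. All 4 groups shared the same strain, stage, feeder line and sort. Each GSI sample had a DMSO partner of the same number, called its pair here. How many livers went into a culture is not stated.

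Notch signalling passes between touching cells. A ligand of the Delta (Dll) or Jagged (Jag) type on one cell pulls on a Notch receptor of its neighbour, and gamma-secretase then releases the intracellular part of the receptor, which acts with the DNA-binding protein RBPJ on target genes. Pofut1 adds O-fucose to the EGF-like repeats of Notch, and the fringe enzymes Lfng, Mfng and Rfng lengthen that fucose, which shifts the receptor's response between Delta and Jagged ligands. In blood-forming tissue Dll4, Jag1 and Jag2 are known from endothelial and stromal cells as well as from blood cells.

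Levels are the authors' log2 values, and differences are GSI minus DMSO on the log2 scale. Errors of levels are SDs and errors of differences are standard errors (SE). Every p-value for a difference comes from 1 limma fit to all 22 arrays with the pair as a block, adjusted over 22180 genes, and a gene passed at an adjusted p under 0.05. Hes1, the classical RBPJ target, was lower with GSI in 4 of 4 pairs at 10 h and in 7 of 7 pairs at 4 h.

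As a stand-in for absent transcripts, 1105 olfactory receptor genes were used, since detection calls were not used here and probes differ in their brightness. The 95th percentile of those genes lay at 4.41 in GSI and 4.53 in DMSO at 10 h, and at 4.92 in GSI and 4.90 in DMSO at 4 h. Of the sort markers, Kit averaged 9.30 in GSI and 9.14 in DMSO at 10 h, and 10.04 in GSI and 9.97 in DMSO at 4 h. Slamf1, which encodes the SLAM marker CD150, averaged 4.97 in GSI and 4.74 in DMSO at 10 h, but 4.01 in GSI and 3.98 in DMSO at 4 h, below that percentile. The Sca-1 gene Ly6a had no probe with a single symbol. Of 5 measured lineage markers, which the sort removes, 2 had group means above that percentile in every group (the myeloid gene Itgam and the NK cell gene Klrb1c). All 9 macrophage and all 14 endothelial markers had group means above it at both times. So did 13 of 15 stromal markers at 10 h and 14 of 15 at 4 h, and 4 of 8 hepatocyte markers at 10 h and 8 of 8 at 4 h. Array medians over all probes lay between 4.45 and 4.52 at 10 h but between 5.04 and 5.12 at 4 h. Codes of unstated meaning in the sample descriptions put the pairs in groups, called runs here, and no run holds both times. Levels at 10 h and 4 h are therefore given side by side without a test, since time and run cannot be told apart.

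None of the 5 ligand genes passed at either time, where 0.667% of all genes passed at 10 h and 0.00451% at 4 h. Dll4 was lower with GSI in every pair at both times and Jag1 in every pair at 10 h, and Dll1, Jag2 and Dll3 had differences of 0.26 or less in size. Being lower in every pair held for 8.2% of all genes at 10 h and for 0.807% at 4 h.

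Dll4 (Entrez 54485, chromosome 2), the Delta ligand of sprouting endothelium and of the thymus, was lower with GSI in every pair at both times but did not pass. At 10 h it was 4.34, 5.18, 4.41 and 3.95 in GSI, against 4.56, 5.31, 4.51 and 4.69 in DMSO. These values lay around the 95th percentile of olfactory receptor genes in each array, which 2 of 4 GSI and 3 of 4 DMSO arrays exceeded. Both arrays of pair 4 lay under that of their own array, the DMSO array too, at 4.69. Over the 4 pairs the difference was -0.30 ± 0.127 (adjusted p = 0.296). Without pair 4, which differed by -0.74, it was -0.15. At 4 h Dll4 ran from 5.79 through 7.23 to 9.08 in GSI and from 5.87 through 7.67 to 9.53 in DMSO. The groups overlapped widely, yet the pair differences were -0.07, -0.33, -0.57, -0.43, -0.64, -0.45 and -0.69. Their mean was -0.45 ± 0.096, or 1.37-fold lower, with an interval from -0.66 to -0.25 (adjusted p = 0.420, and between 0.249 and 1 over all settings). At 4 h 1 gene of 22180 fell (0.00451%) and none rose, while 934 had an unadjusted limma p under 0.05, and Dll4 had the 12th smallest p among them. Within the runs of 4 h arrays with at least 2 pairs the difference was -0.45 ± 0.146 (pairs 2 and 3) and -0.55 ± 0.081 (pairs 4 to 7).

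By pair at 4 h, in the same order, the mean of the endothelial list differed by 0.01, 0.29, -0.18, -0.06, 0.02, 0.01 and -0.06. It lay between -0.06 and 0.02 in all pairs but 2 and 3, and the part of endothelial cells in the Dll4 difference was not tested. A second probe that the annotation lists for both Gm14207 and Dll4, and which was left out of the fit for that reason, was lower with GSI in 5 of 7 pairs at 4 h (mean -0.32) and in 2 of 4 at 10 h (mean -0.20).

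Jag1 (Entrez 16449, chromosome 2), a Jagged ligand of endothelium and stroma, was lower with GSI in 4 of 4 pairs at 10 h. It had 5.30, 5.59, 4.98 and 4.85 in GSI, against 5.45, 6.62, 5.57 and 5.33 in DMSO. The highest value was that of the DMSO array of pair 2, and the groups overlapped. Each of these arrays put Jag1 above the 95th percentile of olfactory receptor genes. Their 99th percentile lay at 5.59 in GSI and 5.62 in DMSO, and only the DMSO array of pair 2 lay clearly above it. The difference was -0.56 ± 0.152, or 1.48-fold lower (adjusted p = 0.102, and between 0.063 and 0.918 over all settings), so Jag1 did not pass. Of all genes, 8.2% were lower in every 10 h pair. At 4 h Jag1 was 7.33 ± 0.926 in GSI and 7.24 ± 0.817 in DMSO (SD, n = 7 each) and was higher with GSI in 5 of 7 pairs, with a difference of 0.09 (interval -0.15 to 0.34). Within the 2 runs of 10 h arrays the difference was -0.59 ± 0.270 (pairs 1 and 2) and -0.53 ± 0.212 (pairs 3 and 4). The effect at 10 h minus that at 4 h was -0.65 ± 0.190 and did not pass (adjusted p = 0.403).

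The stromal list was lower with GSI in 3 of 4 pairs at 10 h, beside Jag1. The mean of the 15 OP9 stromal genes, all measured, differed by 0.15, -0.82, -0.79 and -0.36 in pairs 1 to 4, where Jag1 differed by -0.16, -1.03, -0.59 and -0.48. The list ranged from 4.85 to 6.08 in GSI and from 5.21 to 6.73 in DMSO at 10 h, and 13 of 15 members had group means above the olfactory percentile in both. Of the 15 genes 1 fell at 10 h, Cd248 (-1.33 ± 0.270, adjusted p = 0.0391), a marker of perivascular and other mesenchymal cells, named here after its value was seen, where 0.113% of all genes fell. The defining stromal receptor gene Pdgfra stayed below that percentile in all 4 groups, and the collagen gene Col1a2 had 7.20 in GSI and 8.30 in DMSO at 10 h. Not all members went that way, since 2 of 15 were higher with GSI at 10 h (Postn and Thy1). The median difference of the 15 genes was -0.499. Over the 8 arrays at 10 h, Jag1 had an r of 0.88 with the stromal list, 0.83 with the macrophage list and 0.73 with the endothelial list. It had 0.48 with the erythroid, 0.07 with the sort, 0.01 with the hepatocyte and -0.28 with the lineage list. With the stromal list its r over the 14 arrays at 4 h was 0.46. These are descriptions, and the share of all genes with an r as high at 10 h was not counted. In bulk samples such as these, fewer cells of a type and less RNA per cell cannot be told apart, and the part of stromal cells in the Jag1 difference was not tested.

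**Figure D1:**
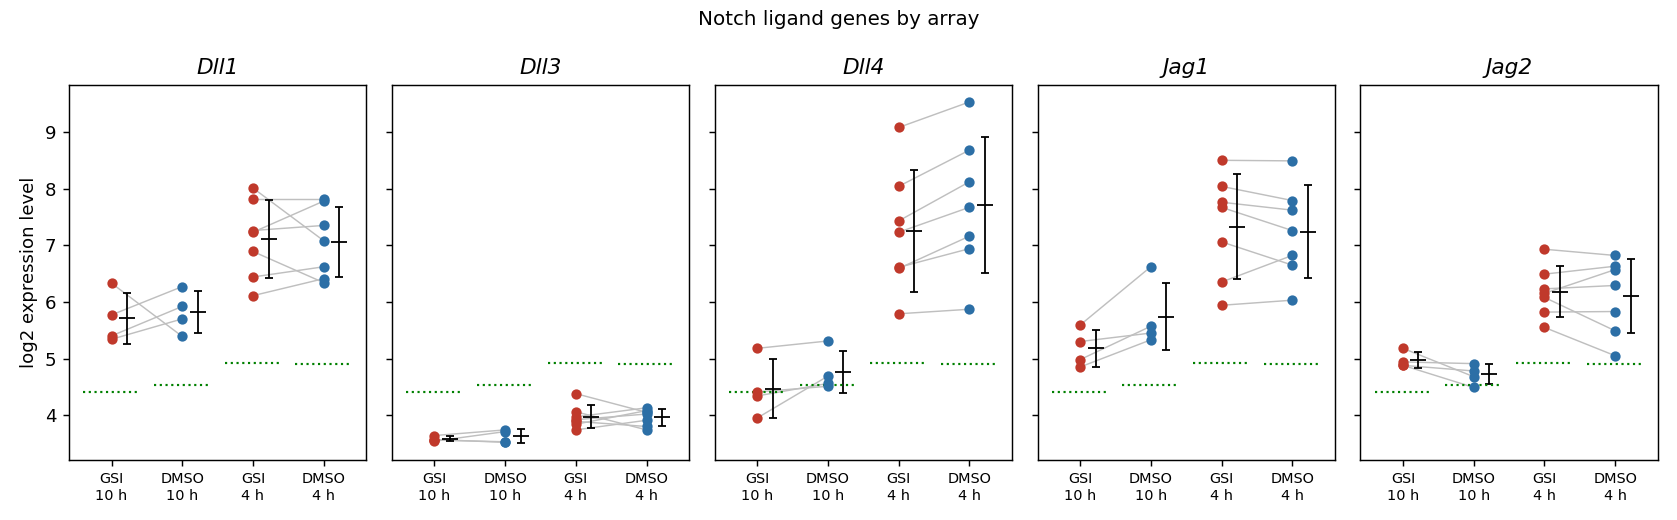
Log2 level of the 5 ligand genes (vertical axis) in GSI and DMSO arrays at 10 h and 4 h (horizontal axis), with points for arrays, grey lines for pairs, black bars for mean ± SD (n = 4 each at 10 h, n = 7 each at 4 h) and green dotted lines for the 95th percentile of olfactory receptor genes. Dll4 at 4 h spans 5.79 to 9.53 with all 7 lines running up toward DMSO, and Dll3 stays under the dotted lines.

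Dll1 (Entrez 13388, chromosome 17) is the ligand that the feeder line is made to express. At 10 h it had 6.33, 5.77, 5.40 and 5.34 in GSI, against 5.39, 6.27, 5.92 and 5.70 in DMSO. The GSI array was higher in pair 1 and lower in the other pairs, which gave a difference of -0.11 ± 0.238 (interval -0.61 to 0.40, adjusted p = 0.877). At 4 h it ran from 6.11 through 7.23 to 8.01 in GSI and from 6.34 through 7.08 to 7.81 in DMSO, with a difference of 0.05 ± 0.180 (adjusted p = 0.999). Pair differences of Dll1 were wide, from -0.55 to 0.93 at 4 h, and they took the sign of the stromal list's difference in pairs 1, 2, 3, 5 and 6 of that time and in 4 of 4 pairs at 10 h. In pair 1 at 4 h, Dll1 differed by 0.93 and the stromal list by 1.12. The share of all genes with as many matching signs was not counted, and the part of stromal cells in the Dll1 differences was not tested. The second Dll1 probe read 4.10 ± 0.083 in GSI and 4.25 ± 0.184 in DMSO at 10 h, and 4.82 ± 0.176 in GSI and 4.84 ± 0.121 in DMSO at 4 h, near or under the olfactory percentile. With GSI this probe was lower in 4 of 4 pairs at 10 h, pair 1 included, and in 4 of 7 at 4 h. Whether the probes also read the feeder's introduced Dll1 is not given in the sources used here.

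Jag2 (Entrez 16450, chromosome 12), the other Jagged ligand, was higher with GSI in 4 of 4 pairs at 10 h. It had 4.88, 5.18, 4.88 and 4.94 in GSI, against 4.49, 4.68, 4.78 and 4.91 in DMSO. The lowest GSI value lay below the highest DMSO value, so the groups overlapped, and the difference of 0.26 ± 0.151 did not pass (adjusted p = 0.471). Of all genes, 8.47% were higher in every 10 h pair. At 4 h it was 6.18 ± 0.445 in GSI and 6.10 ± 0.658 in DMSO, a difference of 0.08 (interval -0.16 to 0.32). Dll3 (Entrez 13389, chromosome 7), a divergent Delta protein known to act inside the cell rather than on a neighbour, stayed in the range of absent transcripts. It read 3.54 to 3.64 in GSI and 3.52 to 3.74 in DMSO at 10 h, and 3.74 to 4.38 in GSI and 3.74 to 4.13 in DMSO at 4 h. No array of the 22 put it above the olfactory percentile, and its differences were -0.05 and 0.01 at 10 h and 4 h.

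Mfng (manic fringe, Entrez 17305, chromosome 15) was the member that passed, and it did so at 10 h. Its level in the 4 GSI arrays was 7.57, 8.26, 7.99 and 7.61, against 6.00, 7.95, 7.61 and 6.89 in their DMSO partners. GSI arrays were higher in 4 of 4 pairs, although the ranges overlapped, and the DMSO array of pair 1 was the lowest of the 8. The mean was 7.86 ± 0.329 in GSI and 7.11 ± 0.861 in DMSO (SD, n = 4 each), a rise of 0.74 ± 0.162 (1.67-fold, limma adjusted p = 0.0495). Mfng was thus 1 of 9 members to rise, where 0.555% of all genes rose and 0.113% fell at 10 h. The 4 pair differences were 1.57, 0.31, 0.38 and 0.72. Pair 1 stood apart, and without it the difference was 0.47 ± 0.126 and did not pass (adjusted p = 0.161). The call was also lost without pair 4, where the difference was 0.75 (adjusted p = 0.131). Over all probes, the DMSO arrays of pairs 1 and 4 had interquartile ranges of 2.878 and 2.761. The other 10 h arrays had 3.009 to 3.14. After quantile normalization, which evens out such spreads, the Mfng difference was 0.62 (limma adjusted p = 0.109). The part of array spread in the Mfng difference was not tested. Over all settings tried the adjusted p ran between 0.0288 and 0.867. Within the 2 runs of 10 h arrays the difference was 0.94 ± 0.322 (pairs 1 and 2) and 0.55 ± 0.203 (pairs 3 and 4).

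At 4 h the Mfng difference was near 0. Its level ran from 7.47 through a median of 8.37 to 9.0 in the 7 GSI arrays, and from 7.57 through 8.06 to 9.20 in the 7 DMSO arrays. The ranges overlapped almost fully, and GSI arrays were higher in 4 of 7 pairs. The mean was 8.39 ± 0.604 in GSI and 8.35 ± 0.583 in DMSO (SD, n = 7 each), a difference of 0.04 with a 95% confidence interval from -0.22 to 0.30 (adjusted p = 0.999). The effect at 10 h minus that at 4 h was 0.70 ± 0.203, and this difference itself did not pass (adjusted p = 0.403). In that comparison 0.018% of all genes passed. Mfng is therefore not shown to respond differently at the 2 times.

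The list called sort markers here holds Kit, Ly6a, Slamf1, Procr, Cd34, Ptprc, Gata2 and Mecom. It is wider than the sort gate described above, since Gata2 and Mecom are transcription factor genes. The mean of this list was also higher with GSI at 10 h, though Procr was not (6.87 in GSI and 6.92 in DMSO). Of the 8 SLAM LSK genes 7 were measured, and 1 of these rose at 10 h, the stem cell transcription factor gene Mecom (0.82 ± 0.172, adjusted p = 0.0436), named here after its value was seen, where 0.555% of all genes rose. The mean of the list ranged over the arrays from 7.90 to 8.20 in GSI and from 7.51 to 7.98 in DMSO at 10 h, and its mean was higher with GSI in 4 of 4 pairs by 0.58, 0.23, 0.19 and 0.22. Pair 1 had the largest difference and its DMSO array the lowest level for the list, as for Mfng. At 4 h the list ranged from 7.94 to 8.89 in GSI and from 7.90 to 8.75 in DMSO. After centring each time on its own mean, Mfng and this list had a Pearson r of 0.88 over 22 arrays (11 cultures with 2 arrays each), and 0.50% of all genes had an r as high. Within times it was 0.93 at 10 h and 0.89 at 4 h. The arrays are not independent, so these r values are descriptions. The part of the sorted cells' share in the Mfng difference was not tested.

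**Figure D2:**
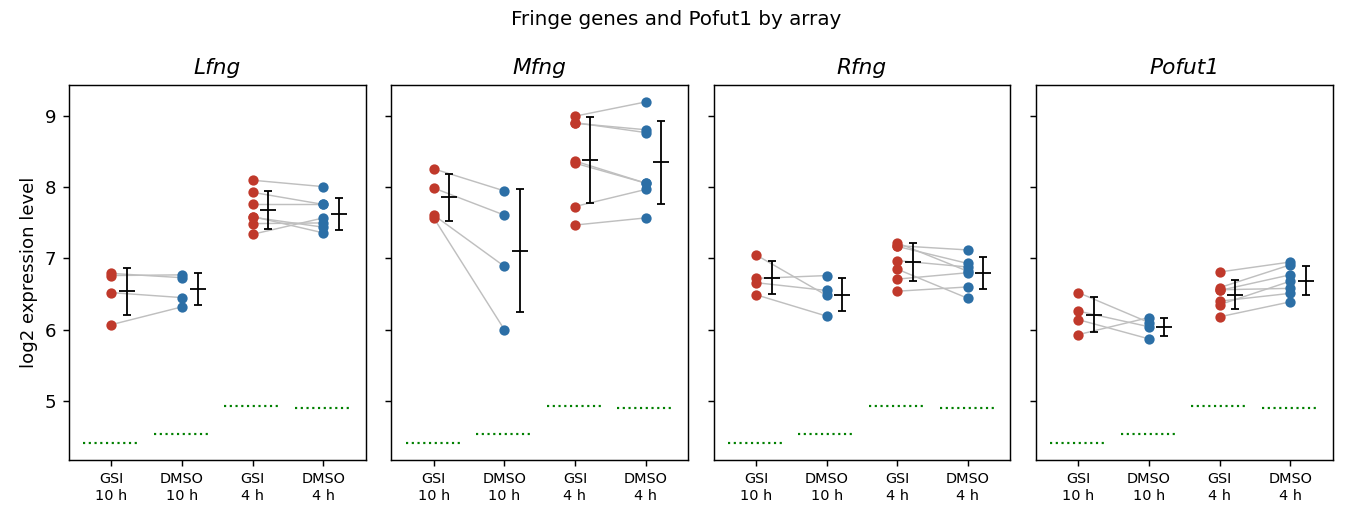
Log2 level of the 3 fringe genes and Pofut1 (vertical axis) in GSI and DMSO arrays at 10 h and 4 h (horizontal axis). Points are arrays, grey lines join the GSI and DMSO array of a pair, black bars are mean ± SD (n = 4 each at 10 h, n = 7 each at 4 h), and green dotted lines mark the 95th percentile of olfactory receptor genes. Mfng at 10 h shows 4 lines that run down toward DMSO, the steepest one to the DMSO array at 6.00.

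The other fringe genes did not pass at either time. Rfng (radical fringe, Entrez 19719, chromosome 11) had levels of 6.66, 7.05, 6.72 and 6.49 in GSI at 10 h, against 6.55, 6.48, 6.76 and 6.19 in DMSO. It was higher with GSI in 3 of 4 pairs, with a difference of 0.24 ± 0.121 and an interval from -0.02 to 0.49 (adjusted p = 0.401). Without pair 2 it was 0.12. At 4 h it was 6.95 ± 0.261 in GSI and 6.80 ± 0.224 in DMSO (SD, n = 7 each), and the difference was 0.15 with an interval from -0.04 to 0.35. Lfng (lunatic fringe, Entrez 16848, chromosome 5) had the narrowest intervals of the 3 fringe genes. Its level was 6.07, 6.76, 6.79 and 6.52 in GSI at 10 h, against 6.32, 6.77, 6.73 and 6.45 in DMSO, and pairs went both ways. Its difference was -0.03 at 10 h (interval -0.25 to 0.18) and 0.06 at 4 h (interval -0.11 to 0.22), where the mean was 7.68 ± 0.262 in GSI and 7.63 ± 0.226 in DMSO.

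Lfng is shown with its promoter because it is known as a Notch target in the segmenting mesoderm of the mouse, and because its promoter alone among those searched held RBPJ letters. RefSeq promoters (GRCm38.p6) were found for 8 of 9 members, all but Mfng, and the 250 bases before each start were searched on both strands for GTGGGAA and its shorter form TGGGAA, which are cores of the RBPJ site, and for the E-box CACGTG, which Hes-type repressors and Myc can bind. Among 32851 promoters of that length, 5.42% held GTGGGAA, 21.59% held TGGGAA and 6.02% held CACGTG. Lfng held GTGGGAA once and TGGGAA at 2 places, and its E-box overlapped the longer RBPJ core by 3 bases. The Dll4 and Jag1 promoters are set beside it because those ligands had the smallest unadjusted p of the 5 ligands. Neither they nor those of the other 5 members found in the table held any of the 3 motifs in this window. The bases run 5′ to 3′ on the gene's strand, and capitals mark the motif letters.
Lfng promoter, chr5:140607091-140607340, plus strand: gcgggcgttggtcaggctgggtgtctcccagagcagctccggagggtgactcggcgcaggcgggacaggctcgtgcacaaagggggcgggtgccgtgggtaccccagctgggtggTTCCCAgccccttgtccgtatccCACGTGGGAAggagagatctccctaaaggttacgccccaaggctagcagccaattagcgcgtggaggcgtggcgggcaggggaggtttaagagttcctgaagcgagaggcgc
Dll4 promoter, chr2:119325534-119325783, plus strand: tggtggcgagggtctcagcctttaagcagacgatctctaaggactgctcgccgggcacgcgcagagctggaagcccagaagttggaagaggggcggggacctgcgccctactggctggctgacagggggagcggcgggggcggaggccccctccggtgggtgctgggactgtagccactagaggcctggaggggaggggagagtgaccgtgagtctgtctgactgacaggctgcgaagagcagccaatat
Jag1 promoter, chr2:137116521-137116770, minus strand: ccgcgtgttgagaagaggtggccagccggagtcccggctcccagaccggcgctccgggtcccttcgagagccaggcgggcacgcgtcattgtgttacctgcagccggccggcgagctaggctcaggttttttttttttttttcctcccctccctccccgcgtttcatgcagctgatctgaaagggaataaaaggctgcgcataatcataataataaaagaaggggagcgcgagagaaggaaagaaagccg
A match describes letters only, and Lfng had differences within 0.06 of 0 at both times.

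Pofut1 (protein O-fucosyltransferase, Entrez 140484, chromosome 2) had opposite signs at the 2 times and passed at neither. Its level at 10 h was 6.14, 5.93, 6.52 and 6.26 in GSI, against 5.87, 6.17, 6.10 and 6.04 in DMSO. Of these pairs 3 were higher and 1 was lower with GSI, with a difference of 0.17 ± 0.114 (adjusted p = 0.527), and leaving out 1 pair gave 0.09 (without pair 3) to 0.31 (without pair 2). At 4 h it ran from 6.18 through 6.55 to 6.81 in GSI and from 6.39 through 6.68 to 6.95 in DMSO. GSI arrays were lower in 7 of 7 pairs, by between 0.02 and 0.33, and the difference was -0.19 ± 0.086 (adjusted p = 0.999). Of all genes, 0.807% were lower in every 4 h pair. The effect at 10 h minus that at 4 h was 0.36 ± 0.142 (adjusted p = 0.464).

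Over the 9 members the median difference was -0.033 at 10 h and 0.052 at 4 h, beside -0.014 and 0.009 over all genes. At 10 h 1 member rose and none fell, and 3 had an unadjusted limma p under 0.05 (Mfng, Jag1 and Dll4), a threshold that 14.1% of all genes met. At 4 h none passed, and 2 members (Dll4 and Pofut1) were under it, where 4.21% of all genes were. GSI and DMSO arrays overlapped for each of the 9 members at both times, while 2.72% of all genes had groups apart at 10 h and 0.0406% at 4 h.

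**Figure D3:**
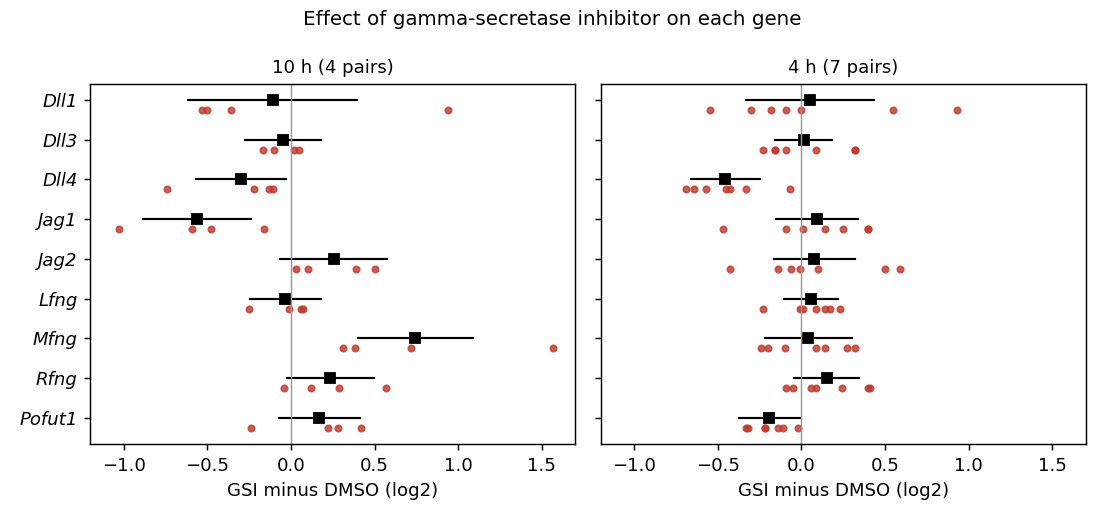
Difference of GSI minus DMSO on the log2 scale (horizontal axis) for each of the 9 genes (vertical axis) at 10 h and 4 h. Black squares and lines are the limma estimates with 95% confidence intervals, and red points are the single pairs (4 at 10 h, 7 at 4 h). Mfng at 10 h lies at 0.74 with every pair above 0, and Dll4 at 4 h lies at -0.45 with every pair below 0.

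At 4 h each of the 9 members spanned more over its culture means than its largest difference within a pair, and Dll4, Jag1, Mfng, Jag2 and Dll1 spanned most. A span over 7 cultures is set there against single pair differences, and the share of all genes that do the same was not counted. Averaged over the GSI and DMSO array of each culture, Dll4 spanned 3.47 log2 units over the 7 cultures at 4 h, from 5.83 in culture 1 to 9.30 in culture 6, while its median pair difference was 0.45 in size. Only 0.46% of all genes spanned as much, and the median gene spanned 0.44. Jag1 spanned 2.51 (5.98 to 8.49), with the same lowest and highest cultures, a span that 2.12% of all genes reached. Mfng spanned 1.58 in the other direction, with 9.10 in culture 1 and 7.52 in culture 6, and Jag2 spanned 1.57 with its lowest value, 5.30, in culture 6. Dll1 spanned 1.55, from 6.26 in culture 2 to 7.81 in culture 7. Lfng, Rfng and Pofut1 spanned 0.60, 0.58 and 0.59, and Dll3 spanned 0.39. At 10 h the spans were 1.32 for Mfng, 1.01 for Jag1 and 0.93 for Dll4, beside a median of 0.35 over all genes.

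At 4 h the culture means of Dll4 and Jag1 went with those of the endothelial list. The mean of the 14 endothelial markers was 7.51 in culture 1 and 10.08 in culture 6 at 4 h, again the lowest and the highest of the 7. Cultures 2 and 3, which form a run of their own, had Dll4 at 6.78 and 6.87 and endothelial means of 8.53 and 8.51, and cultures 4 to 7, the third run, had Dll4 at 7.45 to 9.30 and endothelial means of 8.90 to 10.08. So the order also followed the runs, and run and culture cannot be told apart. Within the third run alone, culture 6 was still highest and culture 4 lowest for Dll4, Jag1 and the endothelial list. Over the 14 arrays at 4 h, the r with the endothelial list was 0.95 for Dll4 and 0.97 for Jag1, and over the 8 arrays at 10 h it was 0.70 and 0.73. At 10 h both genes had higher r values with the macrophage list (0.80 and 0.83) and the stromal list (0.71 and 0.88). Over all 22 arrays the r with the endothelial list was 0.89 and 0.91, values that 1.46% and 1.00% of all genes reached. Dll4 and Jag1 had an r of 0.91 with each other (0.84 at 10 h and 0.93 at 4 h).

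The fringe genes, Pofut1 and Jag2 had positive r values with the sort list. Over 22 arrays r was 0.88 for Mfng, 0.79 for Jag2, 0.74 for Rfng, 0.59 for Pofut1 and 0.54 for Lfng, against -0.69 for Dll4 and -0.62 for Jag1. Of all genes, 2.47% reached the value of Jag2, 3.9% that of Rfng, 9.46% that of Pofut1 and 11.51% that of Lfng. At 10 h alone Pofut1 had 0.38 and Lfng 0.30. The negative values of Dll4 and Jag1 with the sort list were seen at 4 h (-0.86 and -0.80) and not at 10 h (0.23 and 0.07). With the endothelial list Mfng, Jag2, Rfng, Pofut1 and Lfng had -0.50, -0.67, -0.21, -0.67 and -0.59 over 22 arrays. At 10 h alone these 5 genes had 0.24, -0.09, 0.42, -0.34 and -0.04 with it, in the same order. At 4 h Dll4 and Mfng had an r of -0.95, while at 10 h it was 0.26, so that opposition was seen at 4 h and not at 10 h. Some sort markers, such as Cd34, Procr and Mecom, are also known from endothelium. Dll1 had an r of 0.07 with the sort list (0.41 at 10 h and -0.02 at 4 h) and of 0.03 with the endothelial list (0.70 at 10 h and -0.15 at 4 h). Its r was 0.74 with the stromal list, reached by 0.38% of all genes, and 0.64 with the erythroid list, reached by 0.53%. The second Dll1 probe had an r of 0.21 with the stromal list, which 19.66% of all genes reached. With the 8 measured hepatocyte markers no member had an r beyond 0.18 in size over 22 arrays, and the culture means of that list lay between 6.25 and 9.25 at 4 h. Over the 8 arrays at 10 h alone, however, Pofut1 had 0.72 and Lfng 0.62 with it, and over the 14 arrays at 4 h they had -0.19 and -0.33. What share of each gene's signal came from which cell type was not tested.

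**Figure D4:**
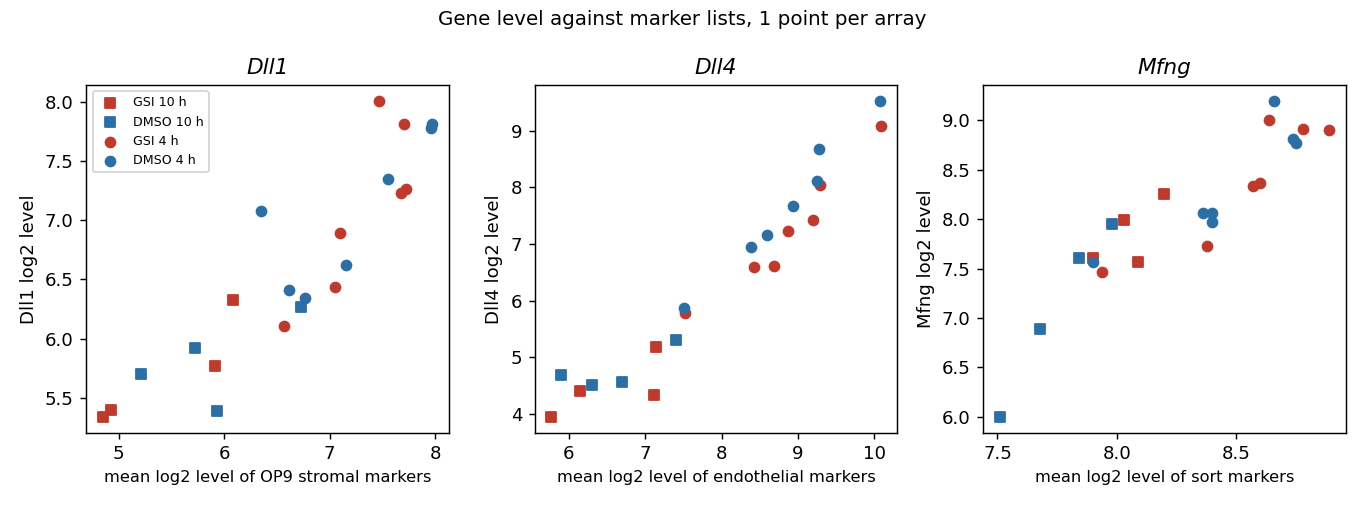
Log2 level of Dll1, Dll4 and Mfng (vertical axes) against the mean log2 level of the OP9 stromal, endothelial and sort marker lists (horizontal axes). Each point is 1 of 22 arrays, red for GSI and blue for DMSO, squares for 10 h and circles for 4 h. In the middle panel the 4 h points run from 5.79 to 9.53 on the Dll4 axis, and the part of endothelial cells in the Dll4 difference was not tested.

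**Figure D5:**
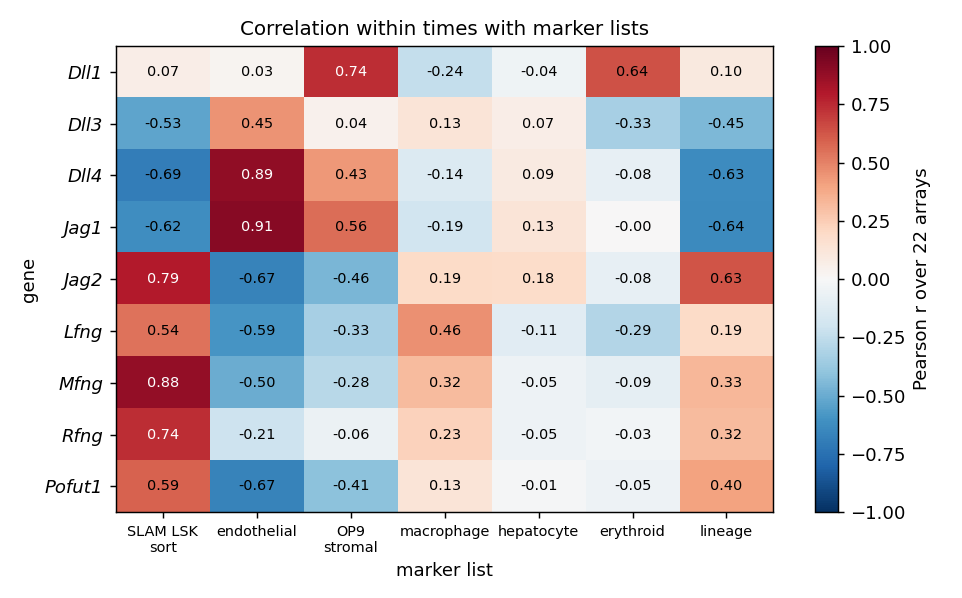
Pearson r over 22 arrays between each of the 9 genes (vertical axis) and the mean of each of 7 marker lists (horizontal axis), after the mean of each time was taken off. Colour and printed value give r. Dll4 and Jag1 are highest with the endothelial list (0.89 and 0.91), Dll1 with the stromal list (0.74) and Mfng, Jag2 and Rfng with the sort list (0.88, 0.79 and 0.74).

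The genes most like each member over the 22 arrays, again after each time's mean was taken off, were found by their r. For Dll1 they were the collagen gene Col6a3 (r = 0.95) and the mesenchymal transcription factor gene Prrx1 (0.93). For Dll4 they were St6gal1, a sialyltransferase gene, and Rell1 (0.96 each). For Jag1 they were Prex2 (0.97) and Arhgef12 (0.96). For Jag2 they were AI467606 (0.89) and Cd34 (0.88), the product of Cd34 being a surface marker of progenitors and endothelium. For Mfng they were Sh3bgrl (0.96) and C2cd3 (0.94), for Lfng Ap1m1 (0.89) and the cytokine gene Tgfb1 (0.88), for Rfng Eya3 (0.88) and Sh3bgrl3 (0.85), and for Pofut1 Taf1c and Tmco4 (0.84 each). For Dll3, at background, they were Tmem35a (0.79) and Rab20 (0.77). Each was picked as the highest or second highest over all genes, so part of its size comes from that choice.

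To set the 10 h and 4 h levels of a gene side by side, its percentile among all genes of its own array was used. Dll4 stood at 44.6 ± 8.86 at 10 h and 71.9 ± 12.4 at 4 h in GSI, against 49.6 ± 5.25 and 77.2 ± 13.0 in DMSO (SD, n = 4 at 10 h and 7 at 4 h). Jag1 stood at 56.0 ± 3.77 and 73.2 ± 11.3 in GSI, against 62.9 ± 6.40 and 72.3 ± 9.64 in DMSO. Both were lower at 10 h, by more than the SD within groups for Dll4. Mfng stood at 85.7 ± 2.71 at 10 h and 85.6 ± 6.38 at 4 h in GSI, against 78.8 ± 8.73 and 85.3 ± 5.94 in DMSO. Rfng stood at 73.9 ± 2.35 at 10 h and 68.8 ± 2.70 at 4 h in GSI, against 72.0 ± 2.07 and 67.1 ± 2.55 in DMSO. It was thus higher at 10 h in both. The endothelial list's median array mean was 6.64 at 10 h and 8.87 at 4 h in GSI, against 6.50 and 8.93 in DMSO, on the log2 scale, and its part in these levels was not tested.

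The rest of the pathway was read against 0.667% of all genes that passed at 10 h and 0.00451% at 4 h. Of the 4 Notch receptor genes none passed at either time, with Notch1 at 0.17 ± 0.118 and Notch3 at 0.12 ± 0.119 at 10 h, and Notch3 at 0.11 and Notch4 at -0.04 at 4 h. Of the 10 genes of ligand endocytosis and trafficking, which make ligands able to pull, none passed. The largest values were -0.35 for Neurl2 and 0.32 for the recycling GTPase gene Rab11a at 10 h, and 0.13 for Neurl1a and 0.12 for Mib2 at 4 h. Neurl1a and Neurl2 belong to the Neuralized family, and Mib2 is a Mind bomb ubiquitin ligase. Of the 10 other glycosyltransferases of Notch-type repeats none passed, and 8 of 10 were positive at 10 h (median 0.125) and 4 of 10 at 4 h (median -0.012), beside 10255 and 12041 of all 22180 genes. Pofut2 was at 0.27 and the xylosyltransferase gene Gxylt2 at -0.26 at 10 h, and Gxylt1 at 0.21 and Eogt at 0.17 at 4 h. Of the 5 genes that supply GDP-fucose, the sugar donor of Pofut1, none passed, with 0.28 for the fucokinase gene Fcsk and 0.25 for Gmds at 10 h, and 0.09 for the transporter gene Slc35c1 and 0.05 for Gfus at 4 h. Of the 5 other EGF-repeat or contactin ligands none passed. Dlk1, a Delta-like protein that lacks the Notch-binding DSL region, was at 0.45 ± 0.129 at 10 h (adjusted p = 0.124), Dlk2 was at -0.25, and at 4 h Dlk2 was at -0.10 and Dner at 0.06. Of the 7 direct targets 1 fell at each time, Hes1 (-1.36 ± 0.117 at 10 h and -0.97 ± 0.088 at 4 h), and Nrarp at -0.25 (10 h) and Hey1 at -0.23 (4 h) did not pass.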

How the data were processed

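Sorted fetal liver cells were profiled on 22 1-colour arrays. The authors deposited log2 expression values per probe. Per the submitters' processing notes, Partek 6.6 and RMA were used, and the notes do not say if the arrays of both times were processed as 1 set. Of 41345 probes, 23521 carried a sole gene symbol. Where a gene had several such probes, the one brightest on average was kept, which left 22180 genes, with no filter on signal.

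GSI minus DMSO was fitted with limma 3.58.1 (R 4.3.3, 2-sided, with eBayes moderation that follows intensity) on all 22 arrays with the pair as a fixed block, adjusted by Benjamini-Hochberg. The fit was tested on simulated data. The pairing comes from the series' design text, which puts a DMSO and a GSI sample in each biological replicate. Own partners' deviations from their group means had r of 0.213 to 0.449 at 10 h and 0.223 to 0.872 at 4 h, and the own partner was the best match for 4 of 4 and 6 of 7 pairs. Description codes of unstated meaning put the pairs in 5 runs. Precision is limited by how many arrays there are.

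The members, pathway lists and marker lists were chosen with earlier results of these data known. Named beyond the members were, by rule, the 2 genes most like each member and the 2 largest differences per pathway list and time, and any other gene is said to be named after its value was seen or stands as a marker. Alternatives changed the block, the spread, the normalization, the filter, the probe, the trend and the pairs used. Promoters are RefSeq's (GRCm38.p6), and the array's own build is not given in the sources used here.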

Additional observations from a re-analysis of the deposited data

Results flagged for a closer look

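Of 54 sets of values (each member's level in each group and its pair differences at each time), 1 held a sample far from the others, where chance alone picks about 1 set in 20. It was the GSI minus DMSO difference of Dll1 in pair 1 at 10 h, 0.94, against -0.50, -0.53 and -0.36 in pairs 2 to 4. In the same pair the OP9 stromal list differed by 0.15 and the endothelial list by 0.43, and both were lower with GSI in the other 3 pairs. The part of those cells in the Dll1 value was not tested.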

How the results depend on the processing

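Of 387 values of the members under other settings, 357 kept their direction and their side of the threshold, 21 changed sign and 9 lost a call, all 9 being Mfng at 10 h. Changing the block, the spread, the filter on level or the trend leaves the differences themselves as they were, so no sign could change there. Among the members only Mfng at 10 h had a call to lose. The count of 357 was therefore partly set in advance. Genes called numbered 148 at 10 h (123 higher, 25 lower), 1 at 4 h and 4 for the difference between times. Without the replicate block the counts were 0, 0 and 0 (limma), with 1363, 360 and 814 at an unadjusted p under 0.05, and Mfng at 10 h had an adjusted p of 0.842. With the spread of each time alone they were 2 at 10 h and 2 at 4 h, and the difference was not run. Quantile normalization gave 36 at 10 h (27 higher, 9 lower) and 0 for the difference (1845 unadjusted), and cyclic loess gave 64 (40 higher, 24 lower) and 2. Genes above the median level gave 285 at 10 h, and no intensity trend gave 91. Within run 2 (4 h) 148 genes passed, within run 3 (4 h) 1, within run 4 (10 h) 0 (1217 unadjusted) and within run 5 (10 h) 15. Leaving out 1 pair gave 27 to 228 at 10 h (27 without pair 4, 48 without pair 1), 1 to 3 at 4 h and 0 to 7 for the difference.

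The Mfng call at 10 h was lost with the spread of that time alone (adjusted p = 0.487), quantile normalization (0.62, adjusted p = 0.109), cyclic loess (0.64, adjusted p = 0.0979), no intensity trend (adjusted p = 0.0703), without pair 1 or pair 4, and within runs 4 and 5 (adjusted p = 0.867 and 0.578). It held for genes above the median level (adjusted p = 0.0288), without pair 2 (0.0356) and without pair 3 (0.0424). Signs that changed belonged to small differences. Dll3 at 10 h became 0.0211 (quantile) and 0.0122 (loess), and its difference between times 0.0071 and 0.0002. Dll1 at 4 h was -0.0194 with its second probe and -0.20 within run 3, and at 10 h 0.22 within run 4. Within run 2, Jag1 and Jag2 at 4 h were -0.034 and -0.16. Dll3 at 4 h within run 3 was -0.022 and Lfng at 10 h within run 5 was 0.064. Leaving out 1 pair gave -0.095 to 0.15 for Dll1, -0.038 to 0.055 for Dll3, -0.0063 to 0.16 for Jag2 and -0.0057 to 0.087 for Mfng at 4 h. At 10 h it gave -0.46 to 0.029 for Dll1 and -0.067 to 0.038 for Lfng, and for the difference of Rfng -0.028 to 0.18. The causes were not tested. Signal near that of olfactory receptor genes limits Dll3 at both times, Dll4 and Jag2 at 10 h and, to a lesser degree, Jag1 at 10 h.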

Other observations

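Besides their own lists, Lfng had an r of 0.46 over 22 arrays with the macrophage list, a value that 2.80% of all genes reached, with 0.19 at 10 h and 0.59 at 4 h. Dll4 and Jag1 had r values of 0.80 and 0.83 with that list at 10 h but -0.30 and -0.46 at 4 h. The probe listed for Gm14207 and Dll4 had an r of 0.54 with the endothelial list, with -0.25 at 10 h and 0.74 at 4 h. These are descriptions over arrays that share cultures and runs.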
